A study of Mus musculus with 6 samples.

Results

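The 10 genes described here encode neurotrophic and gliotrophic factors and the receptors that receive them, as measured in the whole retina of mice that lack Yap in Müller glia. They were taken as a list of names, 6 ligands (Fgf1, Fgf2, Cntf, Lif, Bdnf and Gdnf) and 4 receptor chains (Ngfr, Ntrk2, Cntfr and Il6st), and all 10 were found by symbol among the 55421 genes of the count table. Of these, 9 passed the filter on low counts and were tested, and Cntf did not pass.

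RNA was sequenced from 3 control retinas (Yapfl/fl), those of YR612, YR613 and YR615, and from 3 Yap cKO retinas (Yapfl/fl;RaxCreERT2, those of YR711, YR713 and YR714), taken at 2 months of age. Every animal of both groups was homozygous for the floxed Yap allele and was given 4-hydroxytamoxifen (4OH-T) at P10 and P14, so that the groups differ in the RaxCreERT2 allele. As the study describes this line, Cre is active after birth in Müller glia and in the non-pigmented epithelium of the ciliary body, so most cells of a Yap cKO retina, rods and other neurons among them, keep their Yap alleles. The series asks which early molecular changes go with the glaucoma-like eye disease of these mice, and each group holds 3 animals.

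Trophic factors reach retinal cells through a few families of receptors. Fibroblast growth factors bind FGF receptors and activate the Ras-ERK cascade. CNTF and LIF assemble receptor complexes around the shared chain gp130, encoded by Il6st, and activate JAK and STAT3. BDNF acts through TrkB, encoded by Ntrk2, and GDNF through a GFRα co-receptor with Ret or NCAM. In the retina Müller glia carry many of these receptors, and LIF, CNTF and FGF2 are known for protecting photoreceptors after injury.

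Total counts per retina ranged from 24261799 to 35067068. Yap1, the deleted gene, was read at 9.48, 9.52 and 9.83 TPM in the control retinas and at 3.99, 3.76 and 3.94 TPM in the Yap cKO retinas, in the direction of the labels in all 6 (TPM is the transcript level per exonic length, scaled to the same total in each retina). Its log2 fold change was -1.36 (SE 0.093, adjusted p = 0.000282). The summed level of 10 Müller glia markers was 7040 to 7260 TPM in control and 6170 to 6590 TPM in Yap cKO retinas. None of the 10 was differentially expressed, 3 were fitted higher and 7 lower, and 1 had non-overlapping groups in each direction (Kcnj10 higher, Rlbp1 lower). The 8 ganglion cell markers summed to 2120 to 2410 and 2180 to 2430 TPM. Of 4 marker lists for tissue beside the neural retina, 3 had lower sums in Yap cKO retinas with no overlap. Markers of ciliary non-pigmented epithelium summed to 205 to 214 against 109 to 143 TPM, those of melanin pigment cells to 71.2 to 78.5 against 17.2 to 48.3 TPM, and those of connective tissue fibroblasts to 51.2 to 76.1 against 4.13 to 19.6 TPM. Those of the retinal pigment epithelium overlapped, at 654 to 721 against 202 to 706 TPM. No marker of the 10 lists was at 0 in all retinas. Sex, read from Xist and Ddx3y, was male, male and female in the control retinas and male, female and female in the Yap cKO retinas.

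None of the 9 tested genes was differentially expressed between Yap cKO and control retinas by edgeR's quasi-likelihood test (adjusted p up to 0.05, a change of 1.5-fold or more, and 5 TPM or more as the mean of 1 group), where 0.796% of the 16575 genes tested were. Without the fold and TPM criteria the count was also 0 of 9, against 1.49% of all genes. At an unadjusted p of at most 0.05 there were 3 of the 9, Il6st higher and Fgf2 and Lif lower in Yap cKO retinas, against 21.4% of all genes tested, so that this count stands near the background. The fitted log2 fold changes ran from -0.77 for Lif to 0.32 for Il6st, 6 above and 3 below 0, with a median of 0.06 against 0.00 over all genes tested. The adjusted p values ran from 0.143 to 0.81. For 5 of the 9 genes (Fgf1, Ngfr, Ntrk2, Cntfr and Il6st) the 95% interval lay inside a 1.5-fold change in either direction, a log2 fold change of 0.58. The intervals of Fgf2, Bdnf, Gdnf and Lif reached past it. In whole tissue, fewer cells that express a gene and less RNA per cell cannot be told apart.

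**Figure D1:**
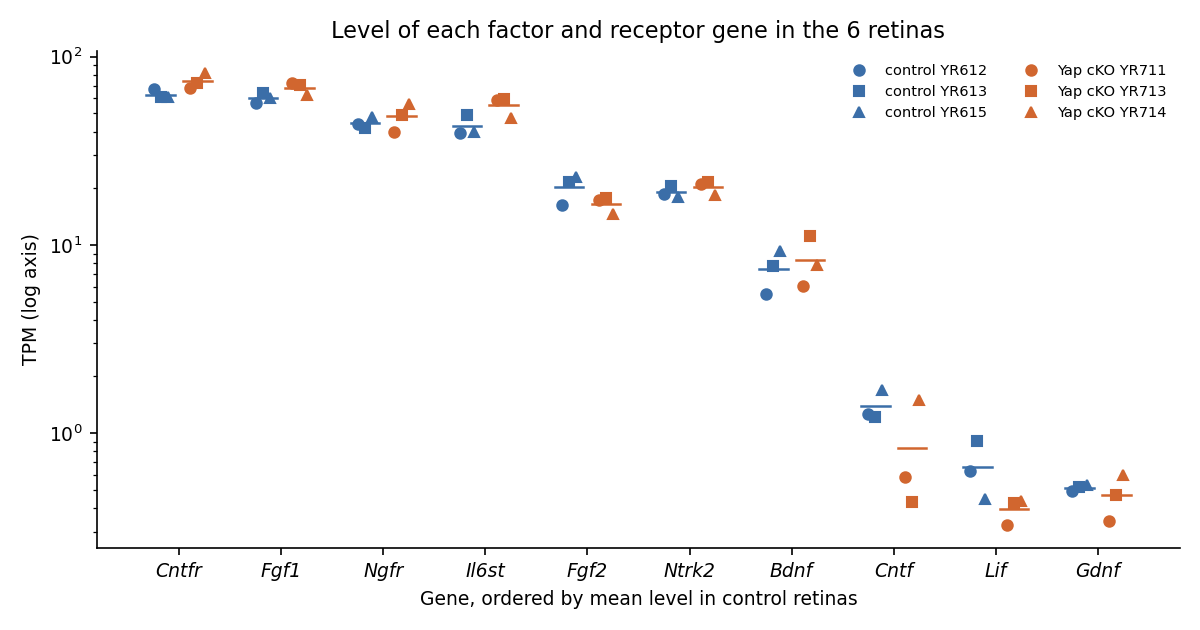
Level of the 10 genes in each of the 6 retinas, in TPM on a log axis, with genes in the order of their mean in control retinas; each point is a retina and each short line a group mean of 3. Cntfr, at 60.8 to 81.6 TPM, and Gdnf, at 0.341 to 0.597 TPM, are the ends of the order by control mean. The lowest single value is that of Lif in YR711, at 0.324 TPM. The points of both genotypes interleave for most genes.

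In control retinas the 10 genes differed widely in level, from Cntfr at 62.9 ± 3.68 TPM (SD, n = 3) to Gdnf at 0.514 ± 0.0182 TPM. The most abundant ligand was Fgf1 at 60.4 ± 3.74 TPM, whose control values overlapped those of Cntfr. Ngfr (44.5 ± 3.12 TPM) and Il6st (42.7 ± 5.51 TPM) came next and overlapped each other, as did Fgf2 (20.3 ± 3.58 TPM) and Ntrk2 (19.1 ± 1.37 TPM). Bdnf stood at 7.49 ± 1.89 TPM, apart from both neighbours. The remaining ligands were read at low levels, with Cntf at 1.40 ± 0.261, Lif at 0.661 ± 0.23 and Gdnf at 0.514 TPM, the last pair overlapping. The value of Cntf understates its level, since 78.9% of its exonic bases are shared with another gene and fragments that overlap both were not counted. All 4 receptor chains thus stood above 15 TPM in every retina, and of the ligands Fgf1 did so in every retina.

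Among the fibroblast growth factors, Fgf1 was read at 56.7, 64.2 and 60.4 TPM in control and 72.3, 70.7 and 62.6 TPM in Yap cKO retinas. The groups overlapped, since YR714 lay below the control animal YR613. Its change on the log2 scale was 0.12 (95% interval -0.05 to 0.30, adjusted p = 0.359). Fgf1 lies at chr18:38838673-38929472 of GRCm38 on the minus strand and has 5463 exonic bases.

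Fgf2, the basic fibroblast growth factor, had 16.2, 21.7 and 23.0 TPM in control and 17.3, 17.7 and 14.6 TPM in Yap cKO retinas. The control animal YR612 lay within the Yap cKO range, and the other control retinas lay above it. This is a log2 fold change of -0.36 (SE 0.122, 95% interval -0.63 to -0.08, adjusted p = 0.152). Correction of each retina for a trend with gene length gave -0.42 (adjusted p = 0.0623), and a fit with no filter on low counts brought the adjusted p to 0.0197 at a log2 fold change of -0.36, a change below 1.5-fold. Among the male animals the 1 Yap cKO retina stood at 0.911 of the mean of 2 control retinas. Among the females the mean of 2 Yap cKO retinas was 0.701 of the 1 control retina. Fgf2 (chr3:37348346-37410108, plus strand, 6782 exonic bases) is overlapped by Nudt6 on the other strand, which strand-specific counting keeps apart, and shares 255 exonic bases (3.76%) with Gm43439 on its own strand.

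The ratio of Fgf1 to Fgf2 within each retina was 3.49, 2.95 and 2.63 in control and 4.18, 4.01 and 4.30 in Yap cKO retinas, so that the groups did not overlap. This ratio was picked after the values were seen and has no test. Among the 36 pairs of tested genes, 11 ratios did not overlap between the groups, where 24.6% of the pairs of all genes tested with a count in every retina did not, so that such ratios are common in these libraries. Fgf2 to Il6st was another of the 11, at 0.414, 0.443 and 0.578 in control and 0.292, 0.297 and 0.308 in Yap cKO retinas.

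Lif, the leukemia inhibitory factor, was the only one of the 6 ligands whose groups did not overlap, where 24.3% of all genes tested did not. It had 0.627, 0.906 and 0.449 TPM in control and 0.324, 0.423 and 0.437 TPM in Yap cKO retinas. The lowest control value, from YR615, stood close above the highest Yap cKO value, from YR714. These levels rest on 18, 27 and 15 counts in control and 9, 16 and 13 counts in Yap cKO retinas. Fitted, this gave a log2 fold change of -0.77 (SE 0.329, 95% interval -1.51 to -0.03, adjusted p = 0.218), and it was -0.50 without YR613 and -1.0 without YR615. Within the males the 1 Yap cKO retina stood at 0.423 of the mean of 2 control retinas. Within the females the mean of 2 Yap cKO retinas was 0.958 of the 1 control retina. Lif (chr11:4257557-4272514, plus strand) has no overlapping gene in the annotation.

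Cntf, the ciliary neurotrophic factor, was counted 9, 9 and 14 times in control and 4, 4 and 11 times in Yap cKO retinas, which is 1.27, 1.22 and 1.70 TPM against 0.584, 0.428 and 1.5 TPM. YR714 lay within the control range, and the other Yap cKO retinas below it. With these counts Cntf did not pass the filter and was not tested with the other genes. In a fit over all 30129 genes with a count, its log2 fold change was -0.84 with a 95% interval from -1.79 to 0.12 (adjusted p = 0.415), that is, from 0.289 to 1.08 of the control level. Of the 1073 exonic bases of Cntf (chr19:12763660-12765632, minus strand), 847 (78.9%) are shared with an unnamed gene of the same strand, ENSMUSG00000118491. Fragments that overlap both genes were assigned to neither by the counting, so the counts of Cntf are lower than its coverage. The other gene itself had 0 to 2 counts per retina.

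Bdnf, the brain-derived neurotrophic factor, had 5.49, 7.72 and 9.25 TPM in control and 6.04, 11.2 and 7.79 TPM in Yap cKO retinas. Relative to its level, its spread within each group was the widest among the members above 5 TPM, and the groups overlapped throughout. Its log2 fold change was 0.11 (SE 0.233, 95% interval -0.42 to 0.63, adjusted p = 0.81), and its sign turned with sex in the model (-0.10), without YR612 (-0.06) and without YR713 (-0.16). Gm45346 runs antisense to Bdnf (chr2:109674700-109727007, plus strand).

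Gdnf, the glial cell line-derived neurotrophic factor, was near the limit of detection, at 12, 13 and 15 counts in control and 8, 15 and 15 counts in Yap cKO retinas. This is 0.495, 0.516 and 0.531 TPM against 0.341, 0.469 and 0.597 TPM, with YR714 above and the others below all control retinas. The log2 fold change of -0.18 had a 95% interval from -0.88 to 0.52 (adjusted p = 0.756). This interval holds 0 and also a fall of more than 1.5-fold. Gdnf lies at chr15:7810846-7837575 on the plus strand.

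**Figure D2:**
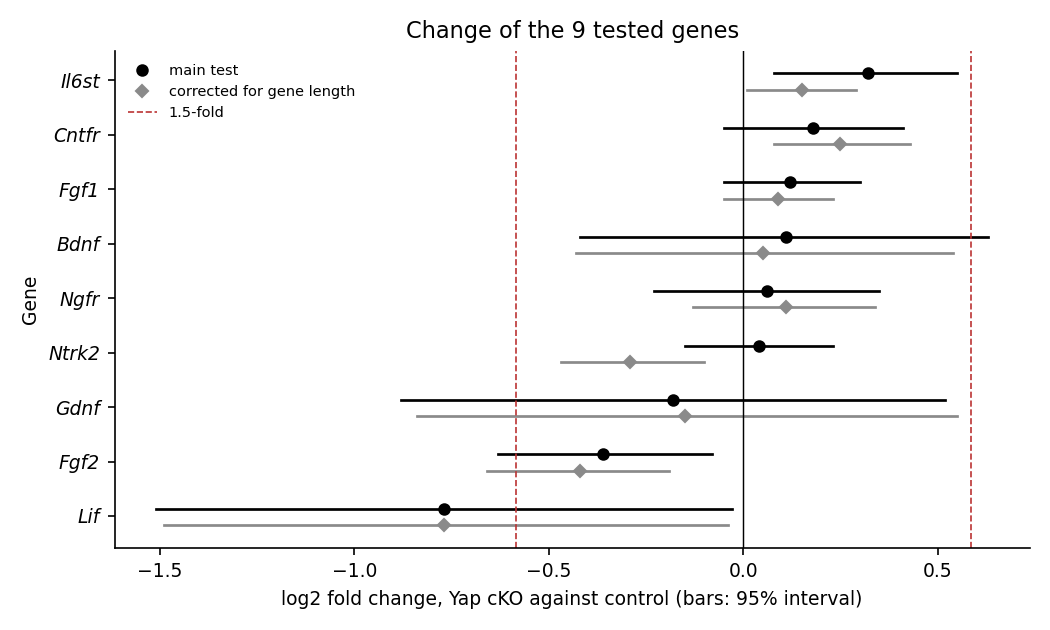
Log2 fold change of the 9 tested genes, Yap cKO against control, with 95% intervals as bars, in the main test (black) and after correction of each retina for gene length (grey); dashed red lines mark a 1.5-fold change and the black line no change. Ntrk2 moves from 0.04 to -0.29 and Il6st from 0.32 to 0.15 with the correction, while Fgf2 and Lif stay below 0.

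Il6st, the gp130 chain shared by CNTF, LIF and the rest of that cytokine family, had 39.2, 49.0 and 39.8 TPM in control and 59.2, 59.4 and 47.3 TPM in Yap cKO retinas. YR711 and YR713 stood above all control retinas, and YR714 lay below the control animal YR613. The fitted change was 0.32 on the log2 scale (SE 0.105, 95% interval 0.08 to 0.55, adjusted p = 0.143). In the males the 1 Yap cKO retina stood at 1.34 times the mean of 2 control retinas. In the females the mean of 2 Yap cKO retinas was 1.34 times the 1 control retina. The adjusted p was 0.0429 without YR613, 0.0429 without YR714 and 0.0288 with no filter on low counts, each at a change below 1.5-fold, and with gene length corrected the log2 fold change was 0.15 (adjusted p = 0.228). Il6st (chr13:112464070-112510086, plus strand) is among the longer genes, with 11099 exonic bases.

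Cntfr encodes the membrane-anchored chain that gives the gp130 complex its affinity for CNTF. It had 67.2, 60.8 and 60.8 TPM in control and 68.1, 72.2 and 81.6 TPM in Yap cKO retinas. All 3 Yap cKO values stood above all 3 control values, YR711 by a small margin over YR612. Fitted, the log2 difference was 0.18 (SE 0.103, 95% interval -0.05 to 0.41, adjusted p = 0.338) and 0.25 with gene length corrected (adjusted p = 0.116). Cntfr and Lif were the 2 of the 9 tested genes whose groups did not overlap, where 24.3% of all genes tested did not, 15.2% with the Yap cKO retinas higher and 9.04% with them lower. Cntfr lies at chr4:41657498-41697089 on the minus strand.

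The BDNF receptor gene Ntrk2 had 18.6, 20.6 and 18.0 TPM in control and 21.1, 21.7 and 18.4 TPM in Yap cKO retinas, with YR714 inside the control range. Its log2 fold change was 0.04 (SE 0.083, 95% interval -0.15 to 0.23, adjusted p = 0.803). Ntrk2 (chr13:58806569-59133970, plus strand) is the longest of the 10 genes, with 19292 exonic bases, and with length corrected the estimate was -0.29 (adjusted p = 0.0972). Counts per gene do not separate the full-length receptor from the truncated form that lacks the kinase domain.

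Ngfr encodes p75, the low-affinity receptor that binds all neurotrophins. It had 43.8, 41.8 and 48.0 TPM in control and 40.0, 48.8 and 56.1 TPM in Yap cKO retinas, so that the Yap cKO values spread to both sides of the control values. On the log2 scale the change was 0.06 (SE 0.130, 95% interval -0.23 to 0.35, adjusted p = 0.803), and it was -0.08 without YR714 and -0.04 with sex in the model. Ngfr lies at chr11:95568818-95587735 on the minus strand.

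**Figure D3:**
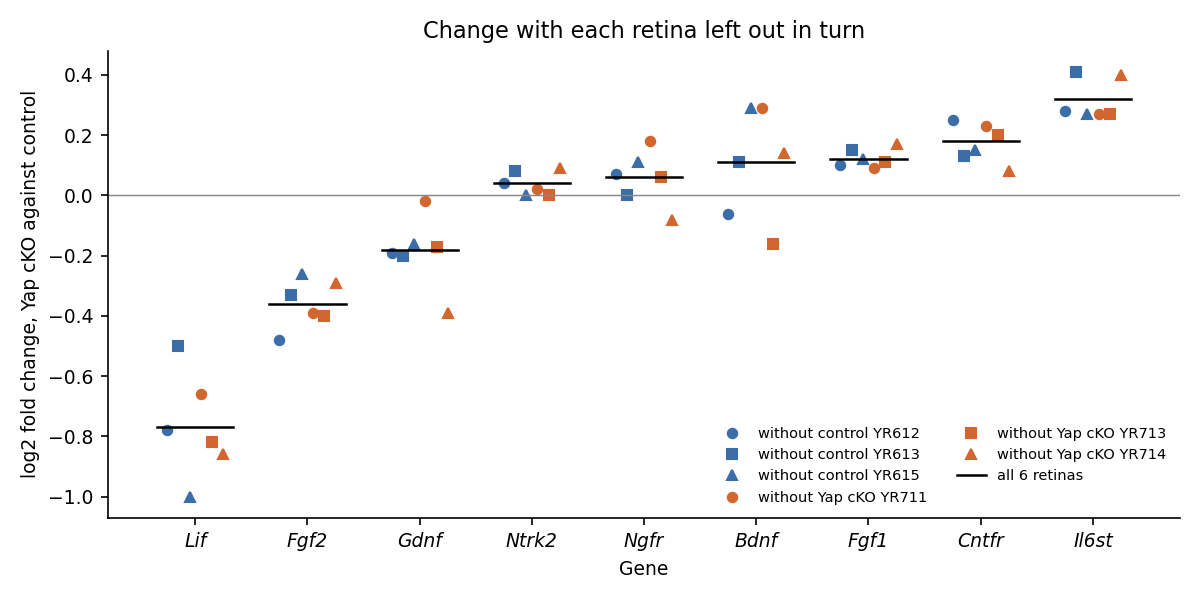
Log2 fold change of the 9 tested genes, Yap cKO against control, with each retina left out in turn (points, coloured by the group of the retina left out) and with all 6 retinas (black lines). Lif, Fgf2 and Gdnf stay below 0 and Fgf1, Cntfr and Il6st above 0 in all 6 fits, while Bdnf (-0.16 to 0.29) and Ngfr (-0.08 to 0.18) cross 0 and Ntrk2 (0.00 to 0.09) reaches it.

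The fold changes of the series moved with gene length, and the estimates of Ntrk2 and Il6st changed when length was corrected. Across the genes tested, the Spearman correlation of the log2 fold change with exonic length was 0.391, a description across genes, which are not independent replicates. Within retinas, the correlation of a gene's level, relative to its mean, with its length was 0.396 in YR711, 0.385 in YR713 and 0.172 in YR613, and -0.413 in YR612, -0.405 in YR615 and -0.151 in YR714. At the length of Ntrk2 the fitted length curve lay at -0.29, 0.08 and -0.26 in the control retinas and at 0.27, 0.23 and -0.02 in the Yap cKO retinas (log2), and at the length of Il6st it lay at -0.17, 0.06 and -0.15 against 0.16, 0.13 and -0.03. The curves of YR613 and YR714 stood apart from those of their own group. These retinas are also the ones that overlap between the groups for Il6st, a match seen after the values were known. The part of length in these fold changes was otherwise not tested.

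**Figure D4:**
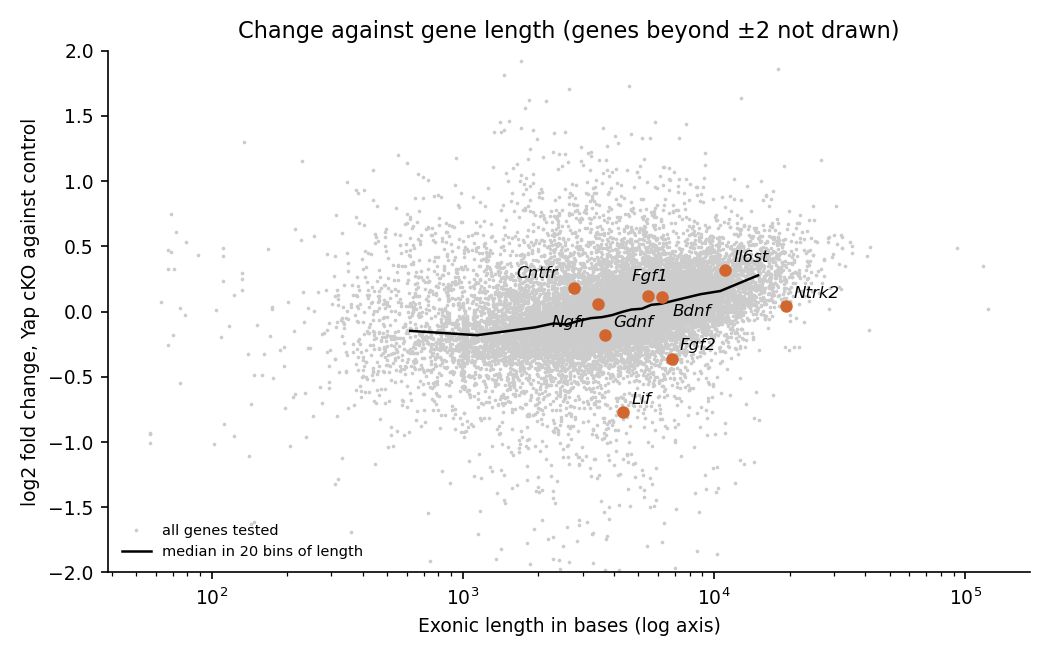
Log2 fold change of the 16575 genes tested (grey points, those beyond 2 in either direction not drawn) against exonic length on a log axis, with the median in 20 bins of length (line) and the 9 tested factor and receptor genes in orange. The median climbs with length; Il6st lies above it and Ntrk2, at 0.04, below it, as do Fgf2 at -0.36 and Lif at -0.77.

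The other genes of these pathways, in 8 lists of ligands, receptors, signalling genes and targets, were read in the same fit. Of 86 such genes 66 were tested and 5 were differentially expressed, Etv5 higher and Ctf1, Edn2, A2m and Serpina3n lower, against the 0.796% of all genes given above. The lists were chosen with earlier results of these data known. Their counts, here and below, are therefore descriptions and no evidence of enrichment over all genes. At an adjusted p of at most 0.05 alone there were 2 higher (with Spred2) and 6 lower (with Fgfr1 and Fgfr2). The median log2 fold change of the 66 was 0.03. The count of 5 was 3 with sex in the model, 0 without YR612, 0 without YR615, 2 without YR713 and 8 without YR714.

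Among the 12 other neurotrophic ligands tested, 1 fell at an adjusted p of 0.05 or less, where 0.989% of all genes tested did. The median log2 fold change of the 12 was 0.01. Ctf1, which encodes cardiotrophin 1, a cytokine that signals through gp130 and the LIF receptor as LIF does, had 8.89, 7.28 and 7.49 TPM in control and 3.26, 3.91 and 4.73 TPM in Yap cKO retinas. The groups were well apart, with a log2 fold change of -1.04 (SE 0.193, adjusted p = 0.0352). The 2 most abundant ligands of this list, Ptn (pleiotrophin, 92.2 to 115 TPM) and Vegfa (63.7 to 69.8 TPM), had log2 fold changes of 0.04 and -0.01 (adjusted p = 0.825 and 0.966). Of the other FGF ligands 7 of 16 were tested and none had an adjusted p of 0.05 or less, with Fgf9 (28.7 to 34 TPM) at 0.03 and Fgf18 (3.06 to 4.65 TPM) at 0.20. Of the FGF ligands listed, Fgf1 had the highest level, and Fgf9 was read above Fgf2 in all 6 retinas.

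Of the 5 receptors of the FGF ligands, 2 fell at an adjusted p of 0.05 or less, where 0.989% of all genes tested did, and neither met all criteria of differential expression. The median log2 fold change of the 5 was -0.43. Fgfr1 had 15.4, 13.6 and 13.1 TPM in control and 9.45, 10.2 and 10.1 TPM in Yap cKO animals, a change of -0.56 on the log2 scale (SE 0.10, adjusted p = 0.0329) that is just under 1.5-fold. Fgfr2 had 2.01, 2.51 and 1.68 TPM in control and 0.803, 0.879 and 1.13 TPM in Yap cKO animals, a log2 difference of -1.19 (SE 0.197, adjusted p = 0.0247) at levels under 5 TPM. Neither gene's groups overlapped, and with gene length corrected the log2 fold changes were -0.70 and -1.33. The other 3 receptors of the family did not pass, among them Fgfrl1, a receptor without a kinase domain, at 0.23 (adjusted p = 0.394). The summed levels of Müller glia and ciliary epithelium markers were lower in the same retinas by the values given above. Of the 10 Müller markers, 3 were fitted higher and 7 lower. The part of the cell makeup in the fall of Fgfr1 and Fgfr2 was not tested.

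Receptors around gp130 and the neurotrophin receptors gave no call. Of 4 tested chains beside Il6st and Cntfr, Lifr, the chain that pairs with gp130, had 22.7, 29.4 and 24 TPM in control and 27.1, 28.4 and 23.8 TPM in Yap cKO retinas, with a log2 fold change of 0.00 (95% interval -0.22 to 0.22), and Il11ra1 one of -0.27 (adjusted p = 0.347). In the 8 tested neurotrophin and GDNF receptors beside Ngfr and Ntrk2, the median log2 fold change was 0.22, and 0.13 with gene length corrected. Ncam1, a GDNF co-receptor and the most abundant of them, had 148 to 181 TPM in control and 172 to 205 TPM in Yap cKO retinas (log2 fold change 0.22, adjusted p = 0.218). Sort1, the partner of p75 for proneurotrophins, had 109 to 130 and 129 to 160 TPM (0.28, adjusted p = 0.141). The GDNF co-receptor Gfra1 and the NT-3 receptor Ntrk3, named after their values were seen, had non-overlapping groups with log2 fold changes of 0.31 and 0.59 (adjusted p = 0.0772 and 0.0776), the latter 0.17 with length corrected.

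Downstream of the receptors, the FGF and MAPK feedback genes had 2 of 11 tested that rose at an adjusted p of 0.05 or less, where 0.501% of all genes tested did, and none that fell. Of these, Etv5 met all criteria, and the median log2 fold change of the 11 was 0.23. Etv5, an ETS transcription factor induced by FGF signalling, had 27.0, 28.2 and 28.9 TPM in control and 41.0, 54.1 and 49.6 TPM in Yap cKO retinas, with a log2 fold change of 0.73 (SE 0.108, adjusted p = 0.0158). Spred2, an inhibitor of Ras-ERK signalling, had 14.4, 16.7 and 15.3 against 21.9, 24.2 and 20.9 TPM, a log2 fold change of 0.47 (adjusted p = 0.0412), under 1.5-fold. Both rose in all 3 Yap cKO retinas, beyond any control retina. The most abundant of the list, Spry2 and Spred1, had log2 fold changes of -0.11 and 0.23 (adjusted p = 0.403 and 0.275).

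No JAK-STAT gene of the 12 tested passed. Jak1, Ptpn11 and Stat3, which relay gp130 signals, had log2 fold changes of 0.05, 0.11 and 0.06 (adjusted p = 0.739, 0.473 and 0.651), and the 95% interval of Stat3 ran from -0.11 to 0.23. Of their feedback inhibitors, Socs3 and Socs2, both named after their values were seen, had fitted changes of opposite sign. Socs3, which STAT3 induces, had 4.51, 4.19 and 4.01 TPM in control and 2.44, 2.58 and 2.89 TPM in Yap cKO retinas (log2 fold change -0.74, adjusted p = 0.061). Socs2 had 2.56, 2.86 and 2.89 TPM in control and 4.17, 3.79 and 4.08 TPM in Yap cKO retinas (0.48, adjusted p = 0.0713). Groups did not overlap in 5 of the 12 genes, 4 higher and 1 lower, against the 24.3% of all genes given above.

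**Figure D5:**
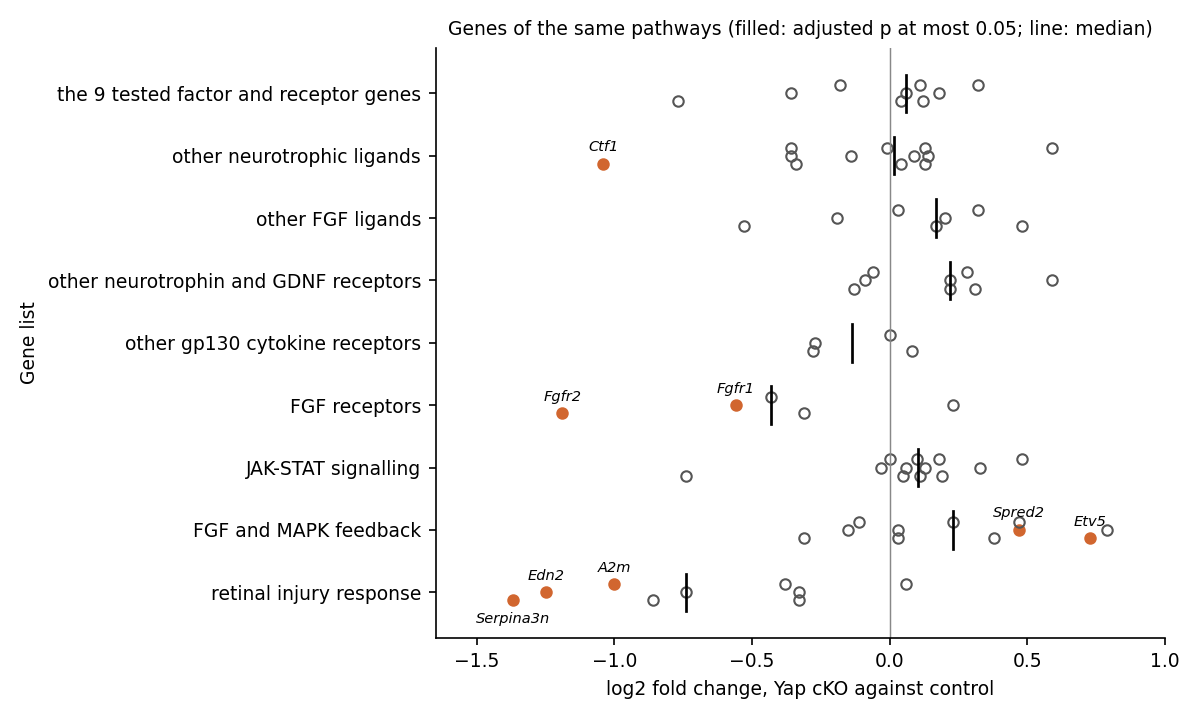
Log2 fold change, Yap cKO against control, of the 9 tested factor and receptor genes (top row) and of the tested genes in 8 lists of the same pathways; each circle is a gene, filled where the adjusted p was at most 0.05, and each line is the median of a row, with the vertical offset of circles for legibility only. Filled circles lie below 0 for Ctf1, Fgfr1, Fgfr2, Edn2, A2m and Serpina3n and above 0 for Spred2 and Etv5.

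The retinal injury response, a list of 9 genes that follow LIF release in stressed retina or mark reactive glia, had the lowest median log2 fold change of the 8 lists, -0.74. Socs3 and Stat3 are on this list and on the JAK-STAT list, and the median is the value of Socs3 given above. At an adjusted p of 0.05 or less 3 of the 9 genes fell, where 0.989% of all genes tested did. Edn2, the endothelin that photoreceptors release on injury, had 10.9, 10.8 and 12.3 TPM in control and 3.21, 5.27 and 6.21 TPM in Yap cKO retinas (log2 fold change -1.25, SE 0.223, adjusted p = 0.0319). Serpina3n, a serine protease inhibitor of reactive glia, had 34.1, 19.4 and 25.6 against 9.25, 14.5 and 8.01 TPM (-1.37, SE 0.262, adjusted p = 0.0412). A2m, a protease inhibitor that also binds growth factors, had 17.9, 16.5 and 14.8 against 6.09, 10.4 and 9.0 TPM (-1.0, SE 0.179, adjusted p = 0.0322). In each of these the groups were apart. Gfap, the intermediate filament of astrocytes and reactive Müller glia, had 53.0, 33.4 and 44.9 TPM in control and 29.1, 39.9 and 40.0 TPM in Yap cKO retinas, with overlapping groups and a log2 fold change of -0.33 (adjusted p = 0.333). Astrocyte markers summed to 96.1 to 119 TPM in control and 94.1 to 105 TPM in Yap cKO retinas. Of these 6 markers 4 were fitted lower and 2 higher. Groups did not overlap in 2 with Yap cKO lower (Aldh1l1 and Aqp9) and in 1 with Yap cKO higher (S100b). Only Aldh1l1 was differentially expressed (log2 fold change -0.79, adjusted p = 0.00437), where 0.796% of all genes tested were. The sums for Müller glia (7040 to 7260 against 6170 to 6590 TPM), ciliary epithelium (205 to 214 against 109 to 143 TPM) and fibroblasts (51.2 to 76.1 against 4.13 to 19.6 TPM) were lower without overlap in the same retinas. Of the tested markers, 3 were fitted higher and 7 lower for Müller glia, 1 and 5 for ciliary epithelium, and 1 and 4 for fibroblasts. Groups did not overlap in 4 ciliary and 3 fibroblast markers, all with Yap cKO lower. The part of the cell makeup in the fall of Edn2, Serpina3n and A2m was not tested.

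YAP acts on its targets through TEAD factors, which bind DNA around the letters GGAATG, searched here on both strands. Promoter sequences of RefSeq (GRCm38.p6) were found for 9 of the 10 genes, Fgf1 being the one without, and 21 start sites in all, 7 of them of Bdnf and 6 of Cntfr. In the 250 bases before the start, 3 of the 21 held these letters, where 12.6% of all 32851 promoters in the table do. The promoters of Fgf2, Cntf, Lif, Gdnf, Ngfr, Ntrk2 and Il6st held none, which says only that the letters are not in this window. The 3 matches are the places in the window searched where these 21 promoters hold the letters. They are shown with 12 bases to each side, in the direction of transcription. The letters are in capitals, and the second match shows them as their reverse complement. The distances to the start are 223 and 77 bases in Bdnf and 232 bases in Cntfr.
Bdnf, chr2:109676797-109676826 (plus strand): aagaggatggagGGAATGtgcagtggggaa
Bdnf, chr2:109722832-109722861 (plus strand): ggcccctcccagCATTCCgaccgaccgctg
Cntfr, chr4:41689395-41689424 (minus strand): gctgagaaggaaGGAATGcagaggacaaat
A match of 6 letters is a description and no measured binding site, and the counts per gene do not separate the start sites of Bdnf or Cntfr. Neither gene was differentially expressed, at log2 fold changes of 0.11 and 0.18.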

How the data were processed

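Per the file header, the authors deposited raw counts per gene, made with featureCounts 1.6.2 (paired fragments on exons, strand setting 2, no option for fragments that overlap several genes) from reads aligned with STAR 2.7.3a to GRCm38. The header names annotation release 98. TPM values were computed here from the counts and exonic lengths. Tests used R 4.3.3 with edgeR 4.0.16 (filterByExpr by group, TMM, quasi-likelihood test, Benjamini-Hochberg adjustment over the 16575 genes tested), as the study's methods name edgeR and the criteria of 0.05, 1.5-fold and 5 TPM. Each standard error is the log2 fold change over the root of the test's F value. The study does not name which edgeR test it ran, and it reports more differentially expressed genes than the 132 found here. The scripts were tested on simulated data. Alternatives were other size factors, DESeq2 1.42.0, the likelihood ratio test, limma-voom (limma 3.58.1), other filters and criteria, sex as a covariate, offsets corrected for gene length (loess, span 0.3) and fits that leave out each retina once. The 10 genes and the lists were chosen with earlier results of these data known. Of the 8 pathway lists, those at or under an adjusted p of 0.05 and the 2 with the highest mean TPM in each list are named, with exceptions marked. Replicates are separate animals. Coordinates and symbols come from the count table and the GRCm38 annotation, whose bounds are the same for all 10 genes.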

Additional observations from a re-analysis of the deposited data

How the results depend on the processing

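The count of 0 differentially expressed genes among the 9 tested members did not move under any of its 19 alternatives. Over all genes, the 132 differentially expressed became 263 with DESeq2, 291 with the likelihood ratio test, 369 with no filter on low counts and 222 at an adjusted p of 0.1, and ran from 38 (without YR615) to 516 (without YR613) with 1 retina left out. The 5 pathway genes became 3 with sex in the model and ran from 0 (without YR612 or YR615) to 8 (without YR714). Of 142 log2 fold changes of members under alternatives, 127 kept their direction and their side of an adjusted p of 0.05, 2 kept their direction but had no adjusted p (Lif and Gdnf with DESeq2), 4 passed it (Fgf2 once, Il6st in 3) and 9 turned in sign, all in Bdnf, Ngfr and Ntrk2, whose main values were 0.11, 0.06 and 0.04. Bdnf was -0.10 and Ngfr -0.04 with sex in the model, and Ntrk2 was -0.01 with upper-quartile factors and -0.29 with gene length corrected. With 1 retina left out Bdnf ran from -0.16 to 0.29, Ngfr from -0.08 to 0.18 and Ntrk2 from 0.00 to 0.09. The cause was not tested, except that length correction removes the trend with length by construction. No paired analysis was possible because the labels give no numbers shared between the groups. Low counts limit Cntf, Lif and Gdnf, at 4 to 27 per retina, where the intervals exceed 1.5-fold, while the median half-width of the 95% interval over all genes was 0.27 (log2). The counts of Cntf are also lowered by the exonic bases that it shares with another gene.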
